A study of Neurospora crassa with 10 samples.

Results

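The euchromatic gaps of the Neurospora crassa genome were the stretches that lie between one H3K9me3 domain and the next on the same linkage group. They were chosen by the called positions of the domains, by sorting the 346 wild-type H3K9me3 domains and taking every interval from the base after one domain to the base before the following one. This gave 339 gaps on 7 linkage groups, which are all the gaps that the deposited domains define. Because the domain positions were used, gap number and gap length are descriptions only. Which genes the gaps hold, and in which expression list those genes stand, did not enter the choice.

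Neurospora crassa is a filamentous fungus in which trimethylation of lysine 9 on histone H3, written by the methyltransferase DIM-5, marks constitutive heterochromatin. Such chromatin typically forms on AT-rich remains of transposons left by repeat-induced point mutation, and heterochromatin protein 1 (HPO) binds the mark and directs DNA methylation by DIM-2. The sequence between the domains carries nearly all genes, and its layout sets which genes are close to heterochromatin on both sides.

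The series as a whole asked how fast histone H3 is exchanged in germinated conidia. Its 10 libraries fall into 5 groups of 2, namely wild type and deletions of dim-2 (marked with hph), dim-5 (marked with bar), hda-1 (hph) and hpo (hph). All groups, the wild type included, carry the same reporter, Pvvd::hH3-3xFLAG at his-3+, a FLAG-tagged histone H3 under the light-induced vvd promoter, and all had the same culture: 18 h of darkness at 32 °C, then 100 mM hydroxyurea for 3 h to stop DNA replication, then blue light of 465 nm for 2 min. The mating type is a for wild type and the dim-2 and hda-1 deletions and is left undetermined in the labels for the dim-5 and hpo deletions. No value per library was analysed here, so genotypes were not compared and read depth is unknown. The measurements below use 5 deposited lists of positions for the wild type: the domains, and 9729 genes divided by wild-type expression into a lowest list (2433 genes), a 25-50% list (2431), a 50-75% list (2432) and a highest list (2433). The strain and culture behind these lists, the unit of the ranking and the number of replicates are not stated in what was used here. That the 25-50% list ranks below the 50-75% list is taken from their names. Regions and genes of 1 genome are not replicates of a condition, so no p-value is given. Shares carry Wilson 95% intervals, medians order-statistic 95% intervals and densities exact Poisson 95% intervals, all of which cover counting error only and treat genes as independent.

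Gaps spanned a wide range of lengths around a median of 55.2 kb. The 95% interval of that median was 48.3 to 64.5 kb, the quartiles were 18.0 and 135.6 kb, and the mean was 100.01 kb. The longest gap (699 kb) was 582.5 times the length of the shortest (1.2 kb). Together the gaps made up 33.9 Mb, or 83.8% of the sequence between the outermost domains, where the domains made up the other 6.56 Mb. The domains themselves had a median length of 9.6 kb (7.5 to 11.7).

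The lower end of the range carries the step of the domain caller. Gap length was a multiple of 300 bp in 329 gaps, and the 10 exceptions all lay on linkage group VI. Exactly 17 gaps measured 1200 bp, which is 4 windows of 300 bp, 1 more measured 1201 bp, and none was shorter. Breaks of less than 4 windows inside a domain, if any exist, therefore do not appear as gaps in this list.

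A few long gaps held most of the sequence and most of the genes. The 109 gaps of 100 kb or more made up 75.8% of gap sequence and held 75.8% of the genes lying in gaps, and the 50 longest gaps (14.7% of all gaps) were enough to hold 50% of these genes. The 60 gaps under 10 kb were 17.7% of the gaps but 0.628% of the sequence. Gap lengths of neighbours along a linkage group were weakly related, with a Spearman rho of 0.13 over 332 pairs of successive gaps, each of which shares a domain. Gap length and the mean length of the 2 flanking domains had a rho of -0.11 over 339 gaps.

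Of the 9729 listed genes, 9518 (97.8%) lay wholly inside a gap. The other 211 overlapped a domain, and no gene lay beyond the outermost domains. Over all gaps the density was 28.1 genes per 100 kb (27.5 to 28.6), or 1 gene in 3.56 kb, and gene intervals covered 67.1% of the sequence.

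Gene density did not follow gap length once a gap was long enough to hold genes. It was 27.9 genes per 100 kb (24.4 to 31.8) in the 45 gaps of 10 to 30 kb. In the 125 gaps of 30 to 100 kb it was 28.4 (27.2 to 29.6), in the 84 gaps of 100 to 300 kb 28.1 (27.3 to 29.0) and in the 25 gaps of 300 kb or more 28.0 (27.1 to 29.0). These 4 intervals overlap each other. No interval of a difference in density between classes was computed, so how small a difference these gene counts can resolve was not assessed. The 27 gaps of 3 to 10 kb had 24.3 genes per 100 kb, from 39 genes, with an interval of 17.3 to 33.3 that includes the other values. Across the 301 gaps with a gene, length and density had a Spearman rho of -0.0025, a description over gaps that share linkage groups and 1 gene annotation. That set leaves out the 38 gaps without a gene, all of them short, which bears on the value. Over the 234 gaps of 30 kb or more, a set chosen by length alone, rho was -0.0047. From 10 kb upward, genic cover varied somewhat more than the gene count. It was 66.4% of sequence at 10 to 30 kb, 65.9% at 30 to 100 kb, 66.7% at 100 to 300 kb and 68.6% at 300 kb or more. The 27 gaps of 3 to 10 kb had a higher cover, at 70.2%.

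**Figure D1:**
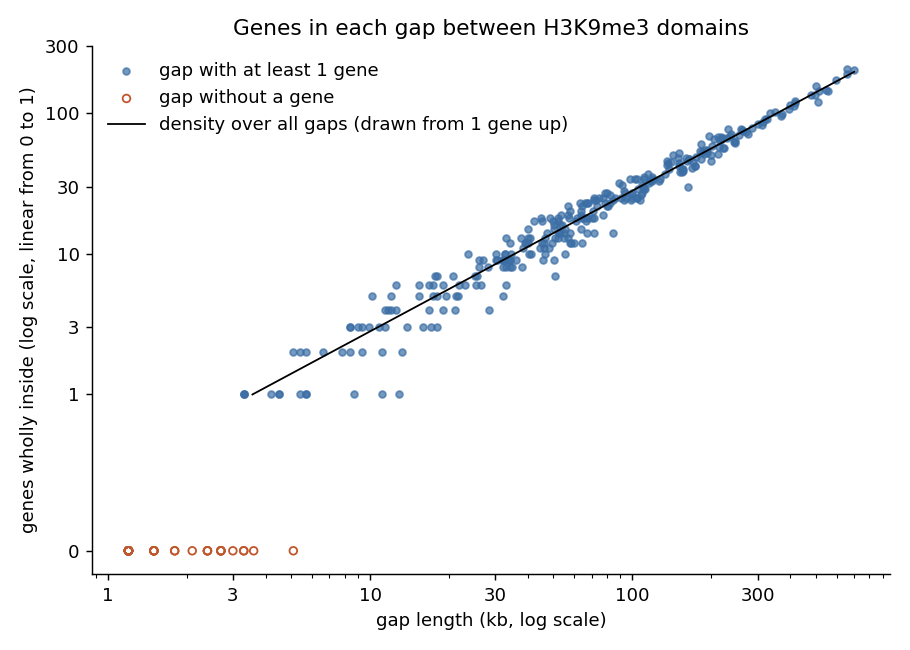
Each point is 1 of the 339 gaps, with its length in kb on a log scale against the number of genes wholly inside it, on a scale that is linear from 0 to 1 and logarithmic above. Gaps with genes follow the line of 28.1 genes per 100 kb over the whole range, and the 38 gaps without a gene (open circles) are all 5.1 kb or shorter.

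Single gaps spread around this density, most of all the short ones. Density per gap ranged from 7.75 to 49.0 genes per 100 kb at 10 to 30 kb, from 13.8 to 40.5 at 30 to 100 kb, from 18.4 to 35.1 at 100 to 300 kb and from 23.6 to 31.4 at 300 kb or more. A short gap holds few genes and its density has a large counting error, so the narrowing with length was not separated from counting.

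Among gaps of 100 kb or more, the sparsest was on I, 9000301 to 9163500, with 30 genes in 163.2 kb (18.4 per 100 kb). Its genes were long, with a median of 2802.5 bp, and covered 71.3% of it, and 18 of the 30 were in the highest list. They include os-1, a histidine kinase of osmosensing, prd-4, a checkpoint kinase, and so, a gene of hyphal fusion, all 3 of the highest list and picked with their lists already known. The next sparsest differed in kind. It lay on II, 577501 to 684300, with 24 genes in 106.8 kb, a genic cover of 41.0%, the lowest of these 109 gaps, and 10 of its 24 genes in the lowest list. The densest was on V, 6192601 to 6389100, with 69 genes in 196.5 kb (35.1 per 100 kb), a median gene length of 1672 bp and 35 genes in the lowest list. Over the 109 gaps, density and median gene length had a Spearman rho of -0.40, and density and the share of lowest-list genes one of 0.23. These measures are computed from the same genes.

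Gaps without a gene were confined, in this set of domains, to the very short ones. In all, 38 of 339 gaps (11.2%, 8.28 to 15) held no complete gene. All 33 gaps under 3 kb were of this kind (100%, 89.6 to 100) and 5 of the 27 gaps of 3 to 10 kb (18.5%, 8.18 to 36.7). None of the 279 longer gaps was. The 38 gaps had a median length of 1.5 kb (1.2 to 2.1) and added up to 71.1 kb, or 0.210% of gap sequence. The longest measured 5.1 kb, and the shortest gap with a gene 3.3 kb, so the 2 kinds overlapped only between these lengths. The median listed gene in gaps was 2131 bp long, with a lower quartile of 1455 bp, so most genes are longer than most of these 38 gaps.

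**Figure D2:**
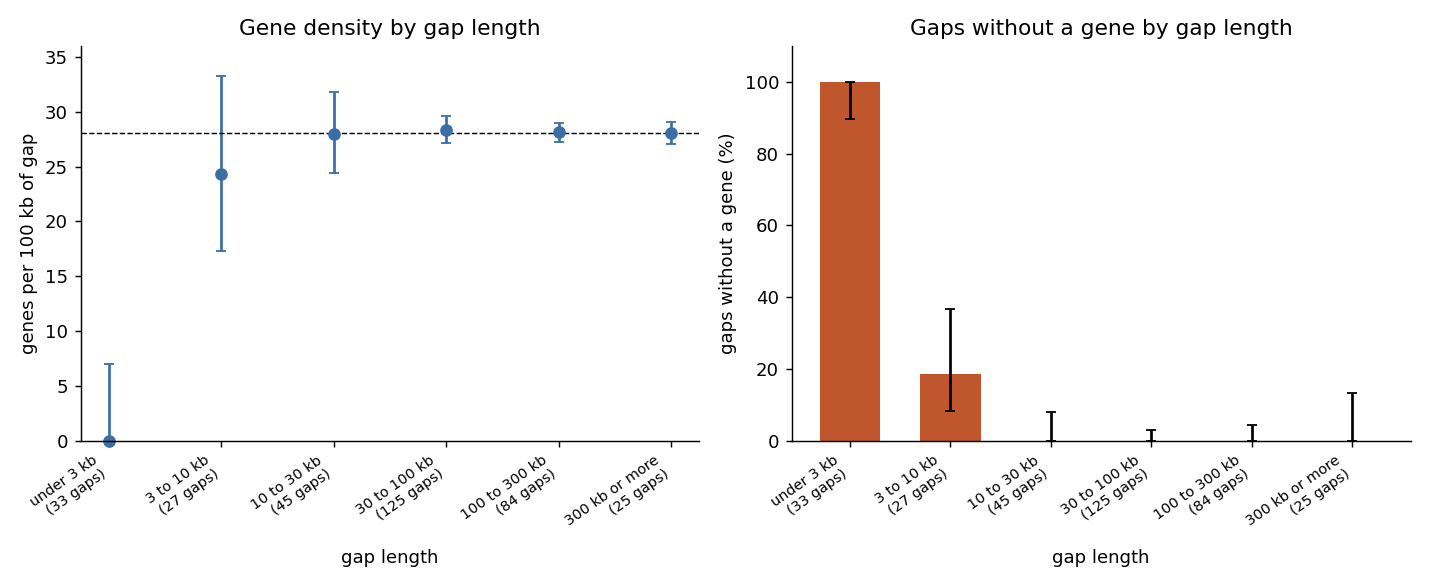
Left, genes per 100 kb of gap in 6 classes of gap length, with exact Poisson 95% intervals and the density over all gaps as a dashed line. Right, the share of gaps without a complete gene in the same classes, with Wilson 95% intervals. Density is level from 10 kb upward, and the share without a gene drops from 100% under 3 kb to 18.5% at 3 to 10 kb and 0 beyond.

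Of the 38 gaps, 30 touched no gene at all and 8 were entered by genes that reach in from a domain. In 5 of these 8, a single gene spanned the whole gap, and in 4 of these both ends of the gene lay inside the flanking H3K9me3 domains. One of the 5 is dim-9 (NCU01656, II, 2791337 to 2795556, 50-75% list), which encodes a subunit of the complex that carries out H3K9 methylation. It covers all 3.6 kb of the gap at 2791801 to 2795400, whose flanking domains measure only 0.9 and 0.6 kb. NCU09968 (VI, 309546 to 315476, highest list) covers the 2.7 kb gap at 311401 to 314100, between domains of 1.8 and 6.6 kb. It is the exception, since it also spans the left domain and starts in the gap before it. NCU08578 on I covers a gap of 1.5 kb, NCU09360 on I and NCU10077 on V each cover a gap of 1.2 kb, and they stand in the highest, 50-75% and 25-50% lists. In the longest gap without a complete gene (VII, 3440701 to 3445800), NCU08123 and NCU08124, both of the 25-50% list, enter from the left and the right by 2737 and 2292 bp and leave few bases uncovered. NCU05179 and NCU05178 share a 3.0 kb gap on IV in the same way, and NCU16947 and NCU04676 a 3.3 kb gap on V. Of the 5 longest gaps without a complete gene, the remaining one (I, 3938701 to 3942000) touched no gene.

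Annotated RNA genes were also absent from gaps without a listed gene. RefSeq places 344 tRNA genes, 72 rRNA genes and 157 other non-coding RNA genes on linkage groups I to V and VII, and 322, 68 and 154 of them lay wholly in gaps. None lay in the 34 gaps without a listed gene on these linkage groups, which add up to only 63.3 kb. At the average tRNA density of 10.6 per Mb, so short a sequence would hold fewer than 1, so this count of 0 carries little information. In longer gaps the tRNA density was 12.5 per Mb at 10 to 30 kb (from 9 genes), 9.86 at 30 to 100 kb, 11.6 at 100 to 300 kb and 9.72 at 300 kb or more. Linkage group VI was left out because part of it is inverted between the files and RefSeq.

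The 5 shortest gaps that held a complete gene held 1 each. NCU16377 (I, 3709501 to 3712800, 25-50% list), NCU16528 (II, 1151701 to 1155000, lowest list) and NCU06380 (IV, 2714101 to 2717400, 50-75% list) each lay in a gap of 3.3 kb. NCU09633 (II, 9001 to 13200, lowest list) had 4.2 kb and NCU08642 (I, 9701101 to 9705600, 50-75% list) 4.5 kb. The gene NCU16528 lies beside the longest domain of II, which measures 211.2 kb. None of these 5 genes was in the highest list, but the last place was a tie. A gap of the same 4.5 kb on VI (100501 to 105000), left out by genome order, held NCU07117 of the highest list. Over all 12 gaps with a single complete gene, each list had 3 genes.

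The 22 gaps of 3 to 10 kb with genes held 39 genes, and these came from every list, with 13 lowest, 6 of 25-50%, 9 of 50-75% and 11 highest. Genes enclosed by domains on both sides at this range therefore did not share 1 expression level. The 3 genes of the gap on IV at 4241701 to 4250100 (NCU08646, NCU08645 and NCU08644) were all in the lowest list, as were both genes of the gap on V at 771301 to 779100 (NCU08885 and NCU08884) and both of the gap on IV at 5865901 to 5871600 (NCU05177 and NCU05176). The histone gene hH2A (NCU02437) lay in an 8.4 kb gap on VII, 2483701 to 2492100, whose left neighbour is the longest domain of that linkage group (349.2 kb). It shared this gap with NCU11258, also of the highest list, and NCU02436 of the lowest list, and hH2B enters it from the 14.4 kb domain on its right. On the other side of the same domain, a gap of 9.3 kb held NCU02453 and NCU02452 of the highest list and NCU02451 of the 50-75% list. Other named genes in gaps of this class were ckb-1, a regulatory subunit of casein kinase II, and nuo20.1, both in the highest list. In the 25-50% list were hsp30, a small heat shock protein, and Prm1, a membrane protein of cell fusion. The genes of this paragraph were picked with their lists already known.

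Many gap ends had a gene close by. From a gap end to the first base of any listed gene the median was 262.5 bp (202 to 383) over the 618 ends of gaps that a gene touches, and the upper quartile was 1198 bp. At 183 of these ends (29.6%, 26.1 to 33.3) a gene crossed into the domain. Neighbouring genes inside a gap stood a median of 594 bp apart (570 to 617, with overlapping pairs counted as 0). These medians are not comparable, because a domain edge can fall at any point of a gene or of the space between genes and ends crossed by a gene count as 0. The widest margin was 14.4 kb and the widest gene-free stretch between genes of 1 gap 18.4 kb. The window of 300 bp limits how exactly a margin can be read.

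Gene cover was lowest in the outermost kilobase. In gaps of 100 kb or more, genes covered 49.6% of the first kb from a gap end, 64.7% of the second, 68.1% from 2 to 5 kb, 68.5% from 5 to 10 kb, 66.3% from 10 to 20 kb and 67.1% from 20 to 50 kb. In gaps of 10 to 100 kb the same series was 52.5%, 68.0%, 67.5%, 66.5%, 65.9% and 66.8%. The second kilobase was thus below all later steps in the longer gaps and not in the shorter ones. No error was computed for these shares.

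With the genes of each length class pooled, the lowest list made up a larger share in shorter gaps and the highest list a larger share in the longest ones. The 25 longest gaps, each 300 kb or more, had 21.4% of their 3152 genes in the lowest list (20.0 to 22.9) and 27.8% in the highest (26.3 to 29.4). At 100 to 300 kb 25.6% of 4061 genes were in the lowest list (24.3 to 27) and 24.3% in the highest (23.0 to 25.6). At 30 to 100 kb the order was turned round, with 28.6% of 2037 genes in the lowest list (26.7 to 30.6) and 22.3% in the highest (20.6 to 24.2). Over all listed genes each list holds 25%, so these shares are shifts of a few percentage points around an even mix.

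The shortest gaps did not continue the trend beyond counting error. At 10 to 30 kb, 24.5% of 229 genes were in the lowest list (19.3 to 30.4) and 21.4% in the highest (16.6 to 27.2), and at 3 to 10 kb the shares were 33.3% (20.6 to 49.0) and 28.2% (16.5 to 43.8) of 39 genes. The middle lists stayed near an even mix, with the 25-50% list between 24.8% and 26.2% and the 50-75% list between 23.9% and 27.9% in the 4 classes from 10 kb upward.

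**Figure D3:**
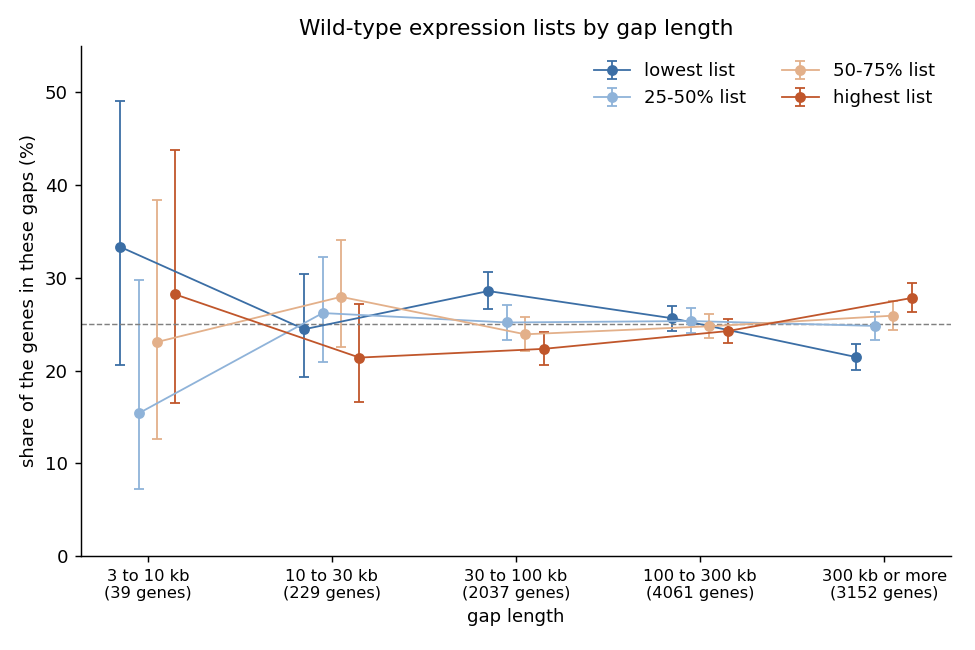
Share of each wild-type expression list among the genes wholly inside gaps, in 5 classes of gap length, with Wilson 95% intervals and 25% as a dashed line. From 30 kb upward the lowest list goes from 28.6% to 21.4% and the highest from 22.3% to 27.8%, while the 2 classes of short gaps rest on 39 and 229 genes.

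With all gaps divided at 100 kb, the lowest list had 28.2% of 2305 genes in shorter gaps and 23.8% of 7213 genes in longer ones. The difference was 4.44 percentage points (Newcombe 95% interval 2.38 to 6.55). For the highest list the shares were 22.3% and 25.8%, a difference of -3.47 points (-5.42 to -1.46). The 25-50% list differed by 0.0119 points (-1.99 to 2.07) and the 50-75% list by -0.979 (-2.97 to 1.07).

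Gene length moved with these shares. The median gene was 2025 bp long in gaps under 100 kb and 2172 bp in longer gaps, while genes numbered NCU10000 or later were 11.9% and 8.90% of the 2 sets. When genes were weighted to the same mix of gene length deciles, a setting chosen after the first values were seen, the difference for the lowest list shrank to 1.68 points and that for the highest list to -2.12. The unit of the expression ranking is not given, and length may be part of it, so the part of gene length in the difference was not tested.

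The differences between gaps under 100 kb and longer gaps were also taken for each linkage group, and their values varied. The lowest list was larger in gaps under 100 kb by 10.9 points on V (5.55 to 16.6), by 7.36 on III (1.68 to 13.4) and by 6.97 on II (0.697 to 13.7). The values were 4.64 on VI (-1.47 to 11), 0.710 on I (-3.11 to 4.86), 0.184 on VII (-5.83 to 6.41) and -1.96 on IV (-7.20 to 3.81), where the interval includes 0. For the highest list the difference was -8.07 on III (-13.0 to -2.59) and -5.97 on V (-10.8 to -0.617), and the intervals of the other 5 include 0, with VII on the positive side at 2.87 (-2.49 to 8.54). Whether the linkage groups differ from each other was not tested.

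Genes of short gaps are near a domain by construction, so genes were also compared at the same distance from a gap end. Under 25 kb from the nearest end, 28.8% of 1916 genes of gaps under 100 kb and 27.1% of 1533 genes of longer gaps were in the lowest list, a difference of 1.67 points (-1.35 to 4.67). For the highest list the shares were 22.3% and 24.1%, a difference of -1.80 points (-4.65 to 1.03). Both intervals include 0 and also differences as large as 4 points, so these gene counts do not settle whether the rim of long gaps and short gaps differ in list mix. The value also depends on which long gaps are taken. In gaps of 300 kb or more alone, 24.0% of 338 genes under 25 kb from an end were in the lowest list (19.7 to 28.8), against 28.8% (26.8 to 30.9) in gaps under 100 kb. For the highest list the shares were 26.9% (22.5 to 31.9) and 22.3% (20.5 to 24.3). Without matching, gaps of 300 kb or more had 21.4% of genes in the lowest list and 27.8% in the highest. Gaps under 100 kb had 28.2% and 22.3%. The matched shares of these sets thus lay closer together than the unmatched ones, and the matched intervals overlap.

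Inside long gaps the mix at the rim differed from that of the core, more clearly for the lowest list. In gaps of 100 kb or more, the lowest list had 27.8% of 648 genes under 10 kb from an end (24.5 to 31.3), then 26.7% (10 to 25 kb), 24.9% (25 to 50 kb) and 24.0% (50 to 100 kb). Among the 1999 genes farther in than 100 kb it had 20.2% (18.5 to 22.0). For the highest list the same series was 23.6% (20.5 to 27), 24.5%, 24.1%, 26.2% and 28.0% (26.1 to 30.0). The outermost and innermost intervals do not overlap for the lowest list and overlap slightly for the highest. Core and gap length go together, since 1775 of the 1999 genes at 100 kb or more from any end lay in gaps of 300 kb or more. Within these gaps alone the lowest list had 25.2% of 143 genes under 10 kb from an end (18.8 to 32.9) and 19.9% of the 1775 core genes (18.2 to 21.9), and here the intervals overlap. The highest list had 27.3% (20.6 to 35.1) and 28.5% (26.5 to 30.7) of the same genes, so its difference between rim and core was small within these gaps. Over all gaps of 100 kb or more, median gene length was 2108.5 bp under 10 kb from an end and 2199 bp at 100 kb or more. In gaps of 300 kb or more alone the order was turned round, with 2240 and 2185 bp.

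**Figure D4:**
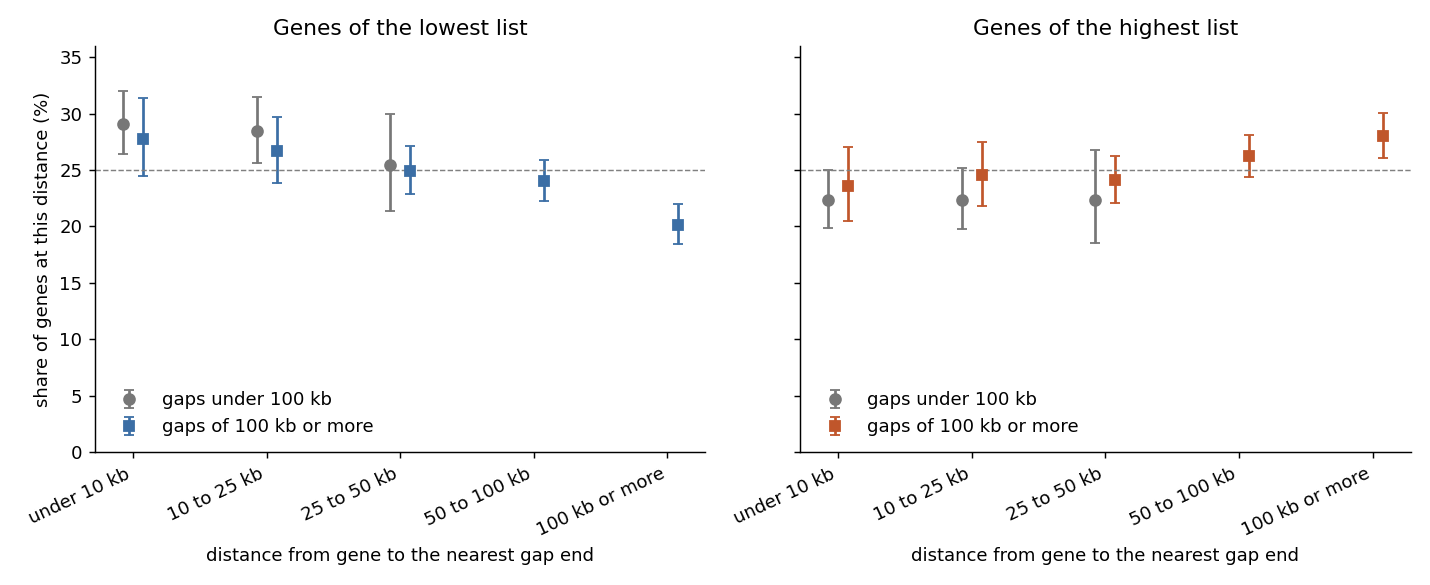
Share of lowest-list genes (left) and highest-list genes (right) by distance from the gene to the nearest gap end, for gaps under 100 kb (grey circles) and of 100 kb or more (coloured squares), with Wilson 95% intervals and 25% as a dashed line. At matched distance the intervals of short and long gaps overlap, and in long gaps the lowest list goes from 27.8% near the end to 20.2% at 100 kb or more.

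Single gaps differed far more than these averages. Of the 215 gaps with at least 10 genes, 193 held genes of all 4 lists. The share of the lowest list per gap ranged from 0 to 92.3% with a median of 22.9%, and that of the highest list from 0 to 60% with a median of 23.1%. Over these 215 gaps, length and share had a Spearman rho of -0.12 for the lowest list and 0.25 for the highest. The quartiles of the lowest-list share were 14.3% and 39.1% over the 105 gaps of 30 to 100 kb. They were 15.8% and 32.6% over the 84 gaps of 100 to 300 kb and 15.3% and 23.1% over the 25 longer ones. More than 50% of genes were in the lowest list in 14, 7 and 0 gaps of these classes. A gap of few genes varies more by counting alone, and this was not separated from differences between gaps.

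The 5 gaps richest in the lowest list lay on linkage groups II, III, V and VI. The highest share was on VI, 444901 to 501600, from NCU04702 to NCU04713, where 12 of 13 genes were in the lowest list, none in the 50-75% or highest list, and genes covered only 27.5% of 56.7 kb with a median length of 798 bp. On III, 382201 to 430500 (NCU16614 to NCU05671), 14 of 18 genes were in the lowest list, and on V, 6021901 to 6067200 (NCU09947 to NCU09966), 13 of 17. The largest of the 5 in length was a gap of 230.7 kb on III, 4597201 to 4827900 (NCU08189 to NCU16706), with 57 of 77 genes in the lowest list and a genic cover of 49.5%. On II, 4159501 to 4205700 (NCU09339 to NCU09351), 8 of 12 were. Genes covered between 27.5% and 49.98% of the sequence in these 5 gaps, against 67.1% over all gaps.

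At the other end, 11 gaps with at least 10 genes had no gene of the lowest list. These gaps tie, and the fixed rule takes the first 5 in genome order, all on I and II. The others lay on III, IV and VII. The largest of the 5 that the fixed rule names was on II, 2002501 to 2113200 (NCU06768 to NCU06734), with 35 genes split 11, 13 and 11 over the 25-50%, 50-75% and highest lists and a genic cover of 86.1%, the highest among gaps of 100 kb or more. It holds dcl-2, a Dicer gene of RNA silencing, 6.95 kb from its end. On I, 4925401 to 5006400 (NCU03214 to NCU03235) had 22 such genes, 5265301 to 5317500 (NCU03307 to NCU03325) 18 and 5340001 to 5394600 (NCU09106 to NCU09118) 13, of which 7 were in the highest list. The last 2 are separated by a single domain of 22.5 kb. On II, 3321901 to 3366300 had 11 genes, among them rho-1, a GTPase of cell wall growth.

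The gaps richest in the highest list were the sparse gap on I described above (18 of 30), a gap of 41.0 kb on VI at 2603399 to 2644352 (6 of 10), one of 99.3 kb on IV at 1173601 to 1272900 (15 of 27), that on I at 5340001 to 5394600 (7 of 13) and one of 60 kb on II at 2170801 to 2230800 (6 of 12). The last was named by genome order from a tie at 50%. Tied with it were gaps on II at 2796001 to 2848500 (7 of 14) and on V at 2208301 to 2278200 (9 of 18). The 27 genes on IV include pod-1, a gene of hyphal polarity, and aod-1, the alternative oxidase, both of the highest list. No highest-list gene was found in 6 gaps with at least 10 genes, among them 12 genes on VI at 393001 to 432900, which is the neighbour of the gap with 12 of 13 lowest-list genes across a domain of 12 kb. Another, on IV at 5889601 to 5913300, held 3 genes of the 25-50% list and 7 of the 50-75% list and nothing else.

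**Figure D5:**
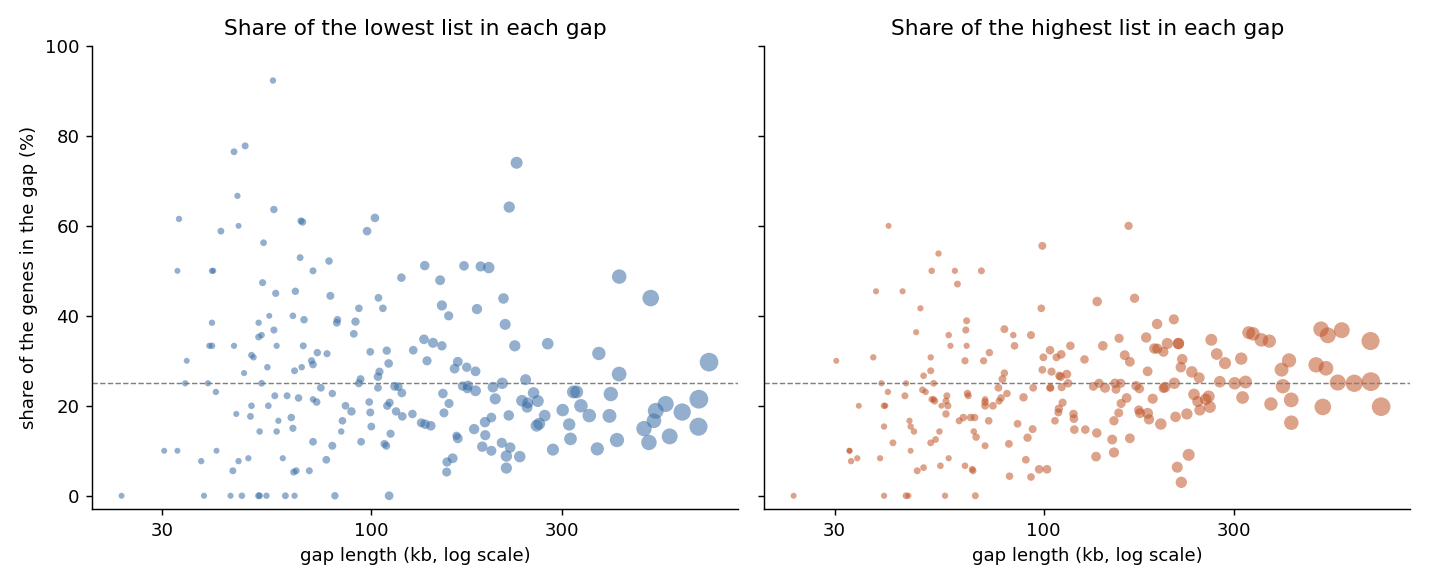
Share of lowest-list genes (left) and highest-list genes (right) in each of the 215 gaps with at least 10 genes, against gap length in kb on a log scale, with point area growing with the number of genes and 25% as a dashed line. Shares of the lowest list reach 92.3% in gaps of 30 to 100 kb and 74.0% at 100 to 300 kb, and stay between 10.4% and 48.7% at 300 kb or more.

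The longest gaps were large, evenly filled and mixed. The 10 longest held 17.0% of all genes in gaps on 16.9% of the sequence. The longest of all was on I, 8293201 to 8992200, with 202 genes from NCU03049 to NCU16488, of which 60 were in the lowest list and 40 in the highest. The gap with the most genes was the longest of IV, 3083701 to 3742800, whose 205 genes included 44 of the lowest and 52 of the highest list. On I, 2404501 to 3062100 held 189 genes (29 lowest, 65 highest) and 7712701 to 8226900 held 143 (27 and 51). The longest gap was 557.1 kb with 144 genes on II (19 and 53), 544.5 kb with 147 genes on III (30 and 37), 598.8 kb with 172 genes on V (32 and 43), 508.8 kb with 120 genes on VI (20 and 34) and 499.5 kb with 157 genes on VII (69 and 31). The tenth, 494.4 kb on III, held 135 genes (16 and 50). Lowest-list genes outnumbered highest-list genes in the longest gaps of I and VII and were outnumbered in the other 8.

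By linkage group, median gap length ran from 38.1 kb on VII (18.0 to 77.1, 45 gaps) and 46.5 kb on VI (32.2 to 90.3) to 63.6 kb on V, 64.2 kb on III and 76.4 kb on II (46.2 to 110.7, 36 gaps), with 55.1 kb on I and 50.1 kb on IV between them. All 7 intervals overlap. Gene density in gaps was lowest on I and II at 27.5 genes per 100 kb (26.4 to 28.7 on I) and highest on VII at 29.8 (27.9 to 31.6), with intervals that overlap. Lowest-list genes were 20.2% of the genes in gaps on I (18.6 to 21.8) and 32.3% on VII (29.5 to 35.3), intervals that do not overlap.

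The genes nearest to a domain on its 2 sides, among those wholly in gaps, shared an expression list about as often as neighbours within a gap. Each list holds 25% of all listed genes, the share to read these values against. Inside gaps, 32.8% of 9217 neighbouring pairs were of 1 list (31.9 to 33.8), at a median spacing of 0.599 kb. The last gene of a gap and the first of the next shared a list in 82 of 267 pairs (30.7%, 25.5 to 36.5), although they stood a median of 14.1 kb apart. Genes that overlap a domain were left out, so such a gene can stand between the members of a pair across a domain. The difference, across minus within, was -2.12 points (-7.43 to 3.73). Any 2 genes of the same gap that stood 10 to 20 kb apart shared a list in 28.2% of 23271 pairs, against 38.2% of the 76 pairs across a domain at that spacing, a difference of 9.96 points (-0.162 to 21.2) in a comparison added after the data were seen. The excess was smaller at the other spacings, with 33.3% of 63 pairs across a domain (22.9 to 45.6) against 29.1% of pairs within a gap at 5 to 10 kb, and 28.6% of 63 pairs (18.9 to 40.7) against 27.3% at 20 to 40 kb. Genes enter many of these same-gap pairs, so the intervals are too narrow. Both genes were in the lowest list in 13.1% of the pairs across a domain and 10.6% of neighbours within a gap.

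Of 10 listed genes of heterochromatin formation, 8 lay wholly in gaps and 2, cdp-2 and dim-9, touched a domain. All 8 were in gaps of 100 kb or more, where 75.8% of all genes in gaps lie, so with so few genes this is close to what holds for genes in general. The H3K9 methyltransferase gene dim-5 shares the gap of 659.1 kb on IV with 204 other genes and lies 260.5 kb from its nearest end. The DNA methyltransferase gene dim-2 lies 56.5 kb from the end of a gap of 320.1 kb on VII, the histone deacetylase gene hda-1 53.0 kb from the end of one of 204 kb on II, and the HP1 gene hpo 33.7 kb from the end of one of 300.8 kb on VI. Of the other members, cul4 and chap lie in the longest gaps of III and II, dim-7 in a gap of 271.2 kb on V and rid, a methyltransferase gene of repeat-induced point mutation, in one of 393.9 kb on I.

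Of 8 histone genes, 7 lay wholly in gaps, and 6 of these 7 in gaps under 100 kb, where 24.2% of genes in gaps lie. The gene hH3, of which the reporter carries a tagged copy, lies with hH4-1 in a gap of 48 kb on II that holds 11 genes. The linker histone gene hH1 lies in a gap of 84 kb on VII, hH2Az in one of 70.8 kb on II, the centromeric histone gene CenH3 in one of 57.9 kb on III and hH2A in the 8.4 kb gap described above. The exception is hH4-2, in the gap of 544.5 kb on III, and hH2B touches a domain. These genes are few, neighbours share a gap, and the list was chosen with other results of these data known, so the counts are a description.

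Of 12 light response and clock genes, 10 lay wholly in gaps, all of them of 100 kb or more, a share to be read against the 75.8% of all genes in gaps, as are those of the lists that follow. The photoreceptor gene vvd lies 111.6 kb from the end of a gap of 350.6 kb on VI with 101 genes. The carotenoid genes al-1 and al-2 and the cryptochrome gene cry share the gap of 514.2 kb on I, and the clock gene frq shares the gap of dim-2. The conidiation gene con-6 was the closest to a domain, 1.17 kb from the end of a gap of 118.8 kb on III, and al-3 and nop-1 touch one. The 8 housekeeping genes also lay in gaps of 100 kb or more, from act in 154.5 kb to am, glutamate dehydrogenase, in 598.8 kb, and his-3, the site of the reporter, lies 150.7 kb from the end of a gap of 334.2 kb on I. Of 6 RNA silencing genes 4 did, the exceptions being dcl-1 in a gap of 60.9 kb on IV that has no lowest-list gene among its 17 and sms-2 in one of 33 kb on VII. Of the list for H3K27 methylation, set-7 was placed in a gap of 173.1 kb and npf, listed in RefSeq as cac-3, in one of 192.3 kb, 0.319 kb from its end. The other 2 members of that list had no matching symbol in the table of gene names and were not placed.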

How the data were processed

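The files analysed are 5 interval lists for the wild type. The authors deposited positions in bp (a unit of the "other" kind) without a usable count, score or expression value. Per the submitters' processing notes the tools were Bowtie2, HOMER, SICER and deepTools; versions, settings, genome build and pooling are not stated there or in the file headers.

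Here 10 empty rows were dropped and both end positions of a domain counted as part of it. The start of a gene is written from 0 in its list, and every position printed counts from 1, in the files' own coordinates. A gene belonged to a gap when it lay wholly inside. Names come from RefSeq's table for NC12: 9490 genes matched by exact position, 238 by mirrored position in an inverted segment of VI (918 kb), and 1 stayed unnamed. CenH3, npf and rid were matched by locus tag.

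Members, gene lists and length classes were chosen with earlier results of these data known. The rule for named gaps takes the longest of each linkage group, the 10 longest, the 5 shortest, the 5 shortest with and 5 longest without a gene, and, among gaps of at least 10 genes, the 5 highest and 5 lowest in share of the lowest and highest lists (ties in genome order), with their outermost genes and 6 gene lists. No test was run, and the code was checked on simulated data (Python 3.11.15, pandas 2.3.3, scipy 1.17.1). Alternatives changed the domains, the genes, the classes and the linkage groups used.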

Additional observations from a re-analysis of the deposited data

How the results depend on the processing

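Of 98 alternative values, 85 stayed within the 95% interval of the reported one (for the number of gaps, within 1.5 times), 13 moved beyond it, and none of the called differences changed sign. The bounding domains mattered most. With domains of at least 3 kb, the median gap was 66.6 kb and 7.75% of gaps had no gene. With domains of at least 10 kb, there were 163 gaps with a median of 118.5 kb, 6.13% had no gene, and the differences between gaps under and over 100 kb were 6.94 points for the lowest list and -5.49 for the highest. With domains under 3 kb apart joined, 1.63% had no gene. Locus tags below NCU10000 gave 25.4 genes per 100 kb, by construction from fewer genes. Dividing the gaps by length into 5 equal classes gave 23.2% lowest-list genes in the longest class and 55.9% without genes in the shortest, since these classes are wider. Weighting to gene length deciles gave 1.68 points for the lowest list, and pairs spaced 10 to 20 kb a difference of 9.96 points across a domain against within a gap, opposite in sign to the reported value, whose interval includes 0. For the other moves the cause was not tested. Leaving out each linkage group in turn gave 3.27 points (without V) to 5.48 points (without IV) for the lowest list. Weighting to gene length, the omission of gaps near linkage group ends or of the gap with the largest excess of lowest-list genes, and the matched spacing were chosen after seeing the data. No paired analysis was possible because no value per library was analysed. The number of genes per class limits the intervals, and read depth is unknown.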
